A study of Mus musculus with 8 samples.

Results

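The Z-disc is the lattice at the border of each sarcomere, in which actin filaments of opposite polarity are anchored and crosslinked. The RNA levels of 10 genes that encode structural proteins of the Z-disc, or of its links to the rest of the fibre, were compared between old wild-type (WT) and *Mybpc2* knockout (C2-/-) mice. The 10 genes are *Actn2*, *Actn3*, *Myoz1*, *Myoz2*, *Myoz3*, *Ldb3*, *Tcap*, *Flnc*, *Myot* and *Des*. They were chosen by name, and all 10 were found among the 16686 genes of the deposited table.

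RNA from the tibialis anterior (TA), a fast muscle of the lower leg, was sequenced from 4 WT and 4 C2-/- mice, with 1 library per mouse. All mice were male, of the FVBN strain and 22 months old by their age label, although a growth entry in the labels gives a younger age. In C2-/- mice, exons 2 to 22 of *Mybpc2* had been replaced by a Neo cassette flanked by LoxP sites, and no Cre driver is described, so the allele is not limited to muscle. *Mybpc2* encodes fast myosin-binding protein C, a thick filament protein of fast fibres, and the comparison asks whether its loss in old muscle goes along with a change in Z-disc transcripts.

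Alpha-actinin crosslinks actin filaments at the Z-disc, and titin, telethonin, myozenins, ZASP, myotilin and filamin C bind to it or to each other there. Desmin filaments surround the Z-discs and tie neighbouring myofibrils to each other and to the cell membrane. Several of these proteins are also mechanical sensors, and mutations in *Des*, *Flnc*, *Ldb3* and *Myot* are known causes of myofibrillar myopathy.

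Promoter sequences of members at different levels were compared, to show what these genes have next to their start sites. The windows end at the base before the start site that RefSeq gives on GRCm38.p6, and entries were found for 5 of the 10 members. Capitals mark an E-box (CANNTG, the recognition sequence of basic helix-loop-helix factors), a MEF2 site or a CArG box (the site of serum response factor). This E-box pattern is general, so a match does not point to a myogenic factor. Both strands were searched, and the motifs do not overlap in the windows shown. Of the 4 starts shown, only that of *Actn2* is the gene end of the deposited table. The first window is that of *Des*, chr1:75360042-75360291 on the plus strand, the second that of *Myoz2*, chr3:123034988-123035237 on the minus strand, the third that of *Actn2*, chr13:12340733-12340982 on the minus strand, and the fourth that of *Ldb3*, chr14:34588682-34588931 on the minus strand.
Des: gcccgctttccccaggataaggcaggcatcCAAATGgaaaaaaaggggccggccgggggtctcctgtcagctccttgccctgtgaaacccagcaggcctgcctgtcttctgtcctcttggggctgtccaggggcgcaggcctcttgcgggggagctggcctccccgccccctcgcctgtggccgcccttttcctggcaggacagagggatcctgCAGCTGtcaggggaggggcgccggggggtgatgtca
Myoz2: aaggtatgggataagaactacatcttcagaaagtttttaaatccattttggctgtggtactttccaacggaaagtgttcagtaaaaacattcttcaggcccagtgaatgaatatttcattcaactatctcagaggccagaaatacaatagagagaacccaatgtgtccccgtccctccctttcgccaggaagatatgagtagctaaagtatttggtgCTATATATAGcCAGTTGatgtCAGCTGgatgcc
Actn2: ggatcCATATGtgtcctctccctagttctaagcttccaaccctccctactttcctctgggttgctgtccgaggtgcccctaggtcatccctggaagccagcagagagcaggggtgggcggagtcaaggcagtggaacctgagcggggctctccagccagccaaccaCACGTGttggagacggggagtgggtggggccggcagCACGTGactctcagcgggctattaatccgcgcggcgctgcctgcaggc
Ldb3: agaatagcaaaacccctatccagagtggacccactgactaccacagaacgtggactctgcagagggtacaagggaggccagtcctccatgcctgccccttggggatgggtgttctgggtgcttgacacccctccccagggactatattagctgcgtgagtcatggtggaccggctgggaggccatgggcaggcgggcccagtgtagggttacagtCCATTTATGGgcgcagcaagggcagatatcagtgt

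The *Des* window holds 2 E-boxes, which begin 220 and 36 bases before the start. The *Myoz2* window holds a MEF2 site 33 bases before the start, followed by E-boxes at 22 and 12 bases. *Actn2* has 3 E-boxes, at 245, 84 and 48 bases, and *Ldb3* has a CArG box at 35 bases and no E-box. A second *Ldb3* window, chr14:34588608-34588857, ends at another start, and there the same CArG box lies at 109 bases, again with no E-box. Neither window of *Flnc* has a match to any of the motifs. Of 32851 promoter windows of the same length, 66.2% hold an E-box, 0.508% the MEF2 site and 1.47% the CArG box, so the E-box is common and the MEF2 site and CArG box are rare. A match is a sequence only, and binding was not measured here.

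Depth ran from 25425993 to 29747692 counts per mouse, and values are given as CPM (counts divided by library size, with TMM scaling). The level that 3 counts stand for lay between 0.101 and 0.118 CPM. In WT, *Mybpc2* was at 4963, 5448, 5099 and 7389 CPM in replicates 1 to 4, and in C2-/- at 4.35, 4.02, 38.3 and 3.85 CPM, with a log2 fold change of −8.82 (SE 0.94, adjusted p = 0.0075, edgeR's quasi-likelihood test, Benjamini-Hochberg adjusted). The libraries thus carry the genotype of their labels. The tissue label was checked by fibre type markers. The 8 fast fibre markers summed to between 135124 and 192231 CPM in WT and between 140983 and 163464 CPM in C2-/-, and the 8 slow fibre markers to between 72.7 and 113 CPM in WT and between 68.1 and 91.8 CPM in C2-/-. WT replicate 2 stood apart, with the highest or lowest value in 52% of the 12542 tested genes, against 14.4% to 25.6% in each other mouse.

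None of the 10 Z-disc genes passed the test of a difference between the genotypes. In edgeR's quasi-likelihood test, 0 of 10 members had a Benjamini-Hochberg adjusted p under 0.05, where 0.0319% of all tested genes had one. Before adjustment, 0 of 10 members had a p under 0.05, where 5.29% of all tested genes had one. All 10 members passed the filter on low counts. In C2-/-, 7 of 10 members were lower and 3 were higher, beside 54.2% of all tested genes that were lower, but with scaling by total counts alone 5 members and 40.9% of all genes were lower. The CPM of the genotypes overlapped for all 10 members, and 3.38% of all tested genes did not overlap. The median log2 fold change of the members was −0.07, and that of all tested genes was −0.02. Together the 10 genes took 2.57% to 2.92% of all counts in WT and 2.55% to 2.94% in C2-/-. With 4 mice per group, each edgeR p-value sets the genotype difference against the variation between mice, which is estimated in part from the other genes. In whole muscle, fewer cells of a type and less RNA per cell cannot be told apart.

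**Figure D1:**
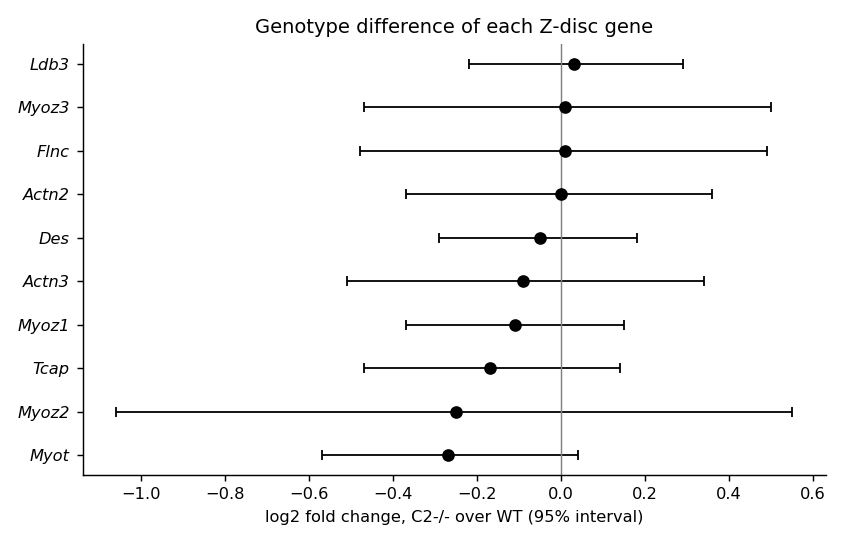
Log2 fold change of C2-/- over WT for the 10 Z-disc genes (x axis), ordered by size, with points for the estimate and bars for its 95% interval (edgeR, n = 4 mice per genotype). Every interval includes 0, from the narrowest, *Des*, to the widest, *Myoz2* (−1.06 to 0.55).

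Although none was called, the intervals differ in what they leave room for. *Des* (95% interval −0.29 to 0.18 on the log2 scale) and *Ldb3* (−0.22 to 0.29) were the most tightly measured. For these, the intervals reach from 0.82-fold to 1.13-fold and from 0.857-fold to 1.22-fold. *Myoz2* was the least tightly measured, with an interval from 0.48-fold to 1.47-fold, which leaves room for changes of that size in its level.

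The levels of the members spanned a wide range within the muscle. To compare genes, CPM was divided by the length of the longest transcript, which gives CPM per kb. *Actn3* was the highest in WT, with 3202 ± 813 CPM per kb (SD, n = 4 mice), and *Tcap* followed with 2651 ± 343. *Des* was at 2024 ± 121 and *Myoz1* at 1850 ± 182 CPM per kb. A middle tier was formed by *Myot*, *Ldb3* and *Actn2*, with mean levels of 797, 687 and 375 CPM per kb in WT. *Myoz3* and *Flnc* were lower, at 95.6 ± 30.1 and 70.1 ± 24.6 CPM per kb, and *Myoz2* was the lowest, at 5.34 ± 2.48 CPM per kb.

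Neighbours in this order were not always separate. The ranges over the 4 WT mice overlapped between *Actn3* and *Tcap*, *Des* and *Myoz1*, *Myot* and *Ldb3*, and *Myoz3* and *Flnc*. They did not overlap between *Tcap* and *Des*, *Myoz1* and *Myot*, *Ldb3* and *Actn2*, *Actn2* and *Myoz3*, or *Flnc* and *Myoz2*. In C2-/-, the order of the mean CPM per kb was the same except that *Ldb3* (703) stood above *Myot* (662), a pair whose ranges overlapped in both genotypes. The authors' TPM, which rest on their own transcript lengths, kept the WT rank of 6 of 10 members and placed *Ldb3* at rank 3, with 3913 ± 297 TPM (SD, n = 4), instead of rank 6.

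**Figure D2:**
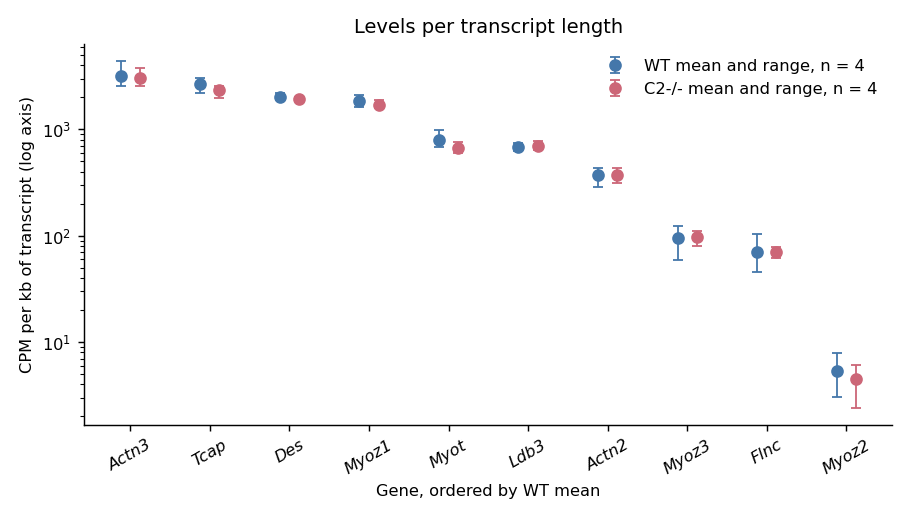
Mean level of each Z-disc gene in CPM per kb of its longest transcript (y axis, log scale) in WT and C2-/-, ordered by the WT mean, with bars for the range over 4 mice. *Actn3* (3202 CPM per kb in WT) is at the top and *Myoz2* (5.34) at the bottom, and the 2 genotypes lie next to each other in all genes.

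The alpha-actinins are the actin crosslinkers of the Z-disc. *Actn2* (gene ID 11472, chr13:12267098-12340732 on GRCm38) encodes the form found in all fibres, and *Actn3* (gene ID 11474, chr19:4861216-4877909) the form restricted to fast fibres. *Actn2* was at 1295, 1302, 1053 and 874 CPM in WT replicates 1 to 4 and at 1302, 935, 1257 and 1026 CPM in C2-/- replicates 1 to 4. WT replicates 1 and 2 and C2-/- replicates 1 and 3 were high, WT replicate 4 was the lowest, and the genotypes overlapped over nearly their whole range. The mean level was 1131 ± 207 CPM in WT and 1130 ± 178 CPM in C2-/- (SD, n = 4 each), with a log2 fold change of −0.002 (SE 0.16, adjusted p = 1 by edgeR's quasi-likelihood test, Benjamini-Hochberg adjusted). The sign of this value changed with each of the other scalings and tests, so it has no direction.

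*Actn3* was at 7362, 9004, 7999 and 12615 CPM in WT and at 7381, 8765, 10820 and 7893 CPM in C2-/-. WT replicate 4 had the highest level and WT replicate 1 the lowest, so all C2-/- mice lay inside the WT range. The log2 fold change of *Actn3* was −0.09 (SE 0.19, 95% interval −0.51 to 0.34), with an adjusted p of 0.987 by the same edgeR test. Without WT replicate 4 it was 0.12, so its sign rested on that mouse, in which *Myh4*, the myosin heavy chain of type IIb fibres, was also highest (67043 CPM, against 27803 to 57410 CPM in the other mice). The part of this mouse's fibre makeup in the value was not tested.

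Within each mouse, the ratio of *Actn3* to *Actn2* counts sets the fast alpha-actinin against that of all fibres, independent of library scaling. It was 5.68, 6.91, 7.6 and 14.4 in WT and 5.67, 9.38, 8.61 and 7.69 in C2-/-. WT replicate 4 was far above the other mice, which all lay under 10. The mean log2 ratio was 3.02 ± 0.58 in WT and 2.95 ± 0.32 in C2-/- (SD, n = 4 each), a difference of −0.07 with a 95% interval of −1.34 to 0.72 (two-sided exact permutation test, p = 0.886, adjusted p = 0.886 over 3 ratios). With 4 mice in each group this test can give no p below 0.0286.

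**Figure D3:**
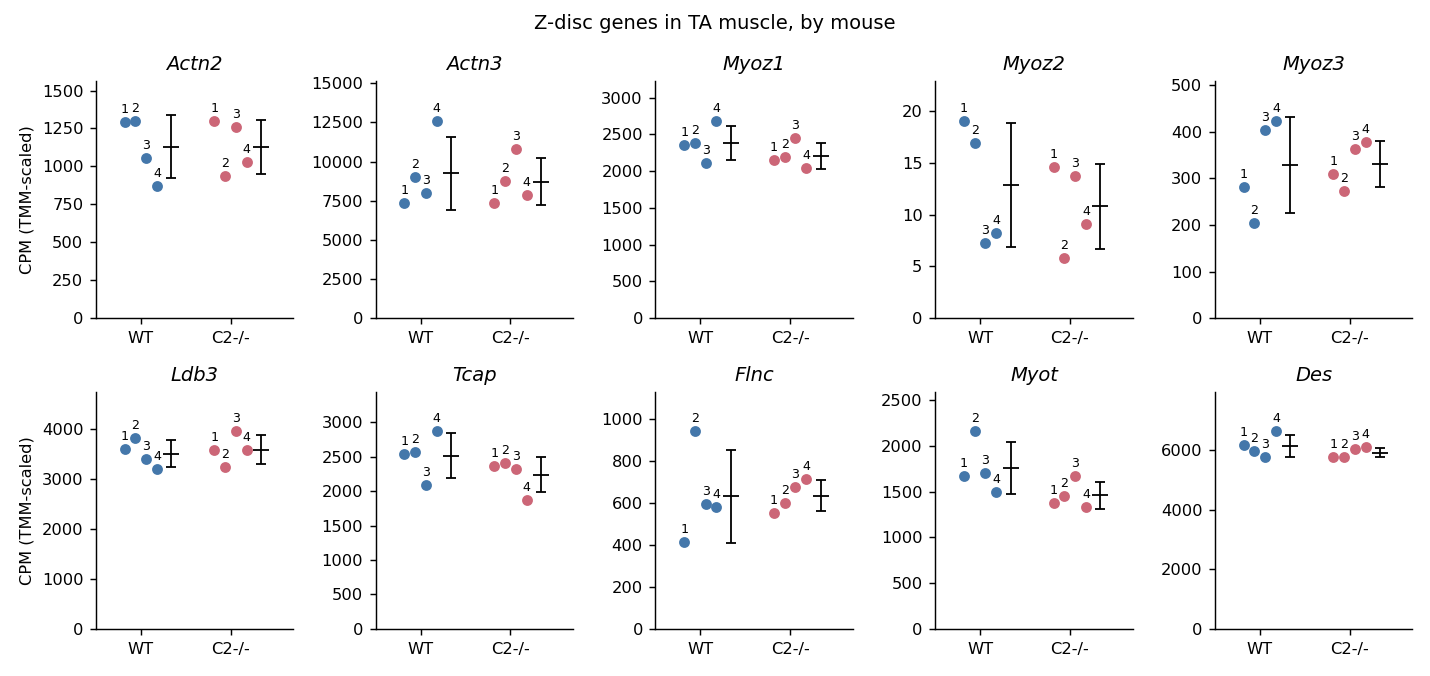
CPM (y axis, from 0) of each Z-disc gene in every mouse, numbered by replicate, for WT (blue) and C2-/- (red), with the mean and SD of each genotype beside the points. The genotypes overlap in all 10 panels, *Des* has the narrowest spread (5766 to 6624 CPM), and *Flnc* has 1 high WT mouse, replicate 2 (943 CPM).

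Myozenins bind alpha-actinin, filamin C and the phosphatase calcineurin at the Z-disc. *Myoz1* (gene ID 59011, chr14:20649102-20656540) and *Myoz3* (gene ID 170947, chr18:60573717-60591716) are the forms of fast fibres, and *Myoz2* (gene ID 59006, chr3:123006206-123035003) is that of slow fibres and heart. *Myoz1* was at 2354, 2383, 2115 and 2687 CPM in WT and at 2145, 2190, 2452 and 2043 CPM in C2-/-. Its values lay close to each other, and WT replicate 4 was again the highest. The mean was 2385 ± 235 CPM in WT and 2207 ± 174 CPM in C2-/- (SD, n = 4 each), and the log2 fold change was −0.11 (SE 0.12, adjusted p = 0.97, edgeR's quasi-likelihood test, Benjamini-Hochberg adjusted).

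*Myoz3* was at 282, 205, 403 and 424 CPM in WT and at 310, 273, 364 and 379 CPM in C2-/-. In both genotypes, replicates 3 and 4 were higher than replicates 1 and 2, but equal numbers name different mice, and no source used here pairs them. The C2-/- mice all lay inside the WT range, with a log2 fold change of 0.01 (SE 0.22, 95% interval −0.47 to 0.50). Without WT replicate 2, which was the lowest mouse, the log2 fold change of *Myoz3* was −0.15. Stretches of 101 to 139 bases of its transcript match 9 other genes at 95% identity or more, so part of its counts is uncertain.

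The slow myozenin *Myoz2* was scarce in this fast muscle and varied most. It was at 19.1, 16.9, 7.28 and 8.25 CPM in WT and at 14.6, 5.84, 13.7 and 9.08 CPM in C2-/-. The highest mouse, WT replicate 1, had 3.27 times the level of the lowest, C2-/- replicate 2, and each genotype held both high and low mice. These values come from 157 to 495 counts, and at 157 counts the counting error alone is 7.98% of the value, much less than the variation between mice (46.5% of the mean in WT and 37.9% in C2-/-). The log2 fold change was −0.25 (SE 0.36), with an adjusted p of 0.982 by the same edgeR test. It was −0.44 without WT replicate 3, −0.09 without WT replicate 2, −0.04 without C2-/- replicate 2 and −0.0027 without WT replicate 1, so its size rested on single mice. Among the 8 slow fibre markers, 6 were lower in C2-/- (median log2 fold change −0.64), beside 54.2% of all tested genes. Against 5.29% of all tested genes, 2 of the 8 had an unadjusted p under 0.05 in the edgeR fit, *Myl2* (log2 fold change −1.66) and *Myh7* (−2.47). Their adjusted p-values were 0.615 and 0.914 in edgeR's quasi-likelihood test. The slow fibre markers were chosen with earlier results of these data known, so their shares are no test against all genes. *Myh7* was at 20.9 CPM in WT replicate 4 and at 0.365 to 2.62 CPM in the other mice. *Myl2*, *Tnnt1* (−0.95) and *Tnnc1* (−1.04) were also highest in WT replicate 4, where *Myoz2* was at 8.25 CPM. In their lowest mice *Myh7*, *Myl2*, *Tnnt1* and *Tnnc1* had 8 to 20 counts. With 227 counts or more in every mouse, *Myl3* was at −0.33, *Tpm3* at −0.16 and *Atp2a2* at 0.11. The part of slow fibre content in the *Myoz2* value was not tested.

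The ratio of *Myoz1* to *Myoz2* counts was 123, 141, 291 and 326 in WT and 147, 375, 179 and 225 in C2-/-. WT replicates 1 and 2 and C2-/- replicate 1 formed the low end, and C2-/- replicate 2 the high end. The log2 ratio differed by 0.11 (95% interval −1.14 to 1.60, two-sided exact permutation test, p = 0.8, adjusted p = 0.886 over 3 ratios). Its sign rested on single mice, with −0.13 without WT replicate 1, −0.06 without WT replicate 2, −0.15 without C2-/- replicate 2 and 0.34 without WT replicate 4. For *Myoz1* to *Myoz3* the ratio was 8.33, 11.7, 5.25 and 6.33 in WT and 6.91, 8.02, 6.73 and 5.39 in C2-/-. This ratio was highest in WT replicate 2, the mouse with the least *Myoz3*. It differed by −0.17 on the log2 scale (95% interval −1.11 to 0.60, exact permutation test, p = 0.629, adjusted p = 0.886).

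**Figure D4:**
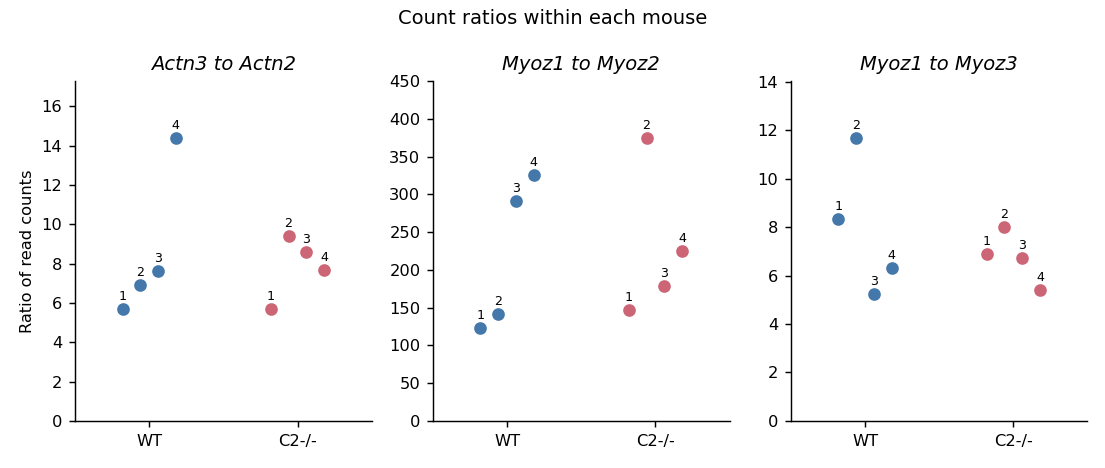
Ratio of read counts within each mouse (y axis, from 0) for *Actn3* to *Actn2*, *Myoz1* to *Myoz2* and *Myoz1* to *Myoz3*, with 1 point per mouse numbered by replicate. The genotypes overlap in each panel, and WT replicate 4 is alone at 14.4 for *Actn3* to *Actn2*.

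*Ldb3* and *Tcap* encode scaffold proteins. *Ldb3* (gene ID 24131, chr14:34526699-34590323) encodes ZASP, a PDZ-LIM protein that binds alpha-actinin, and *Tcap* (gene ID 21393, chr11:98383092-98384953) encodes telethonin, which caps the N-terminal end of titin in the Z-disc. *Ldb3* was at 3608, 3837, 3417 and 3207 CPM in WT and at 3593, 3251, 3964 and 3579 CPM in C2-/-. Both the highest mouse, C2-/- replicate 3, and the lowest, WT replicate 4, lay close to the rest, and the whole spread was 1.24-fold. The log2 fold change of *Ldb3* was 0.03 (SE 0.11, adjusted p = 0.993, edgeR's quasi-likelihood test, Benjamini-Hochberg adjusted), and −0.02 without C2-/- replicate 3.

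*Tcap* was at 2535, 2568, 2082 and 2869 CPM in WT and at 2367, 2411, 2316 and 1871 CPM in C2-/-. Of the WT mice, 3 lay above all C2-/- mice, but WT replicate 3 lay below 3 of them. The means were 2513 ± 325 CPM and 2241 ± 250 CPM (SD, n = 4 each), and the log2 fold change was −0.17 (SE 0.14, 95% interval −0.47 to 0.14, adjusted p = 0.968 by the edgeR test). It stayed negative in all 16 alternatives, between −0.24 and −0.08, and its smallest adjusted p among them was 0.687.

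Filamin C, myotilin and desmin link the Z-disc to actin, to each other and to the membrane. *Flnc* (gene ID 68794, chr6:29433153-29461888) encodes the muscle filamin, a large actin crosslinker recruited to sites of sarcomere damage. Its level was 414, 943, 595 and 582 CPM in WT and 552, 600, 679 and 714 CPM in C2-/-. The WT group held both the lowest mouse (replicate 1) and the highest (replicate 2), and the C2-/- mice lay between them. The WT mean of 634 ± 222 CPM and the C2-/- mean of 636 ± 73.7 CPM (SD, n = 4 each) were nearly equal, with a log2 fold change of 0.01 (SE 0.22, adjusted p = 0.999 by edgeR's quasi-likelihood test, Benjamini-Hochberg adjusted). The coefficient of variation was 35% in WT and 11.6% in C2-/-, a difference that was not tested. Without WT replicate 2 the log2 fold change of *Flnc* was 0.27, with an unadjusted p of 0.101 in the edgeR fit.

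*Myot* (gene ID 58916, chr18:44334057-44355741) encodes myotilin, which binds alpha-actinin, filamin C and actin. It was at 1671, 2162, 1708 and 1499 CPM in WT and at 1382, 1459, 1673 and 1337 CPM in C2-/-. Of the C2-/- mice, 3 lay below every WT mouse, and C2-/- replicate 3 lay within the WT range. *Myot* had the smallest p of the members, with 1760 ± 283 CPM in WT and 1463 ± 149 CPM in C2-/- (SD, n = 4 each) and a log2 fold change of −0.27 (SE 0.14, 95% interval −0.57 to 0.04). The unadjusted p was 0.0817 and the adjusted p 0.968 (edgeR's quasi-likelihood test, Benjamini-Hochberg adjusted), so *Myot* did not pass the test. The unadjusted p was 0.0458 without C2-/- replicate 3 and 0.049 without WT replicate 4 in the edgeR fit, whereas the adjusted p stayed at 0.687 or above in all alternatives. Without WT replicate 2, the highest mouse, the log2 fold change of *Myot* was −0.15.

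*Des* (gene ID 13346, chr1:75359566-75368579) encodes desmin, the intermediate filament protein of muscle. It was at 6148, 5977, 5766 and 6624 CPM in WT and at 5767, 5776, 6020 and 6082 CPM in C2-/-. All 8 mice lay within 1.15-fold of each other, the narrowest spread among the members. The mean was 6129 ± 365 CPM in WT and 5911 ± 163 CPM in C2-/- (SD, n = 4 each), and the log2 fold change was −0.05 (SE 0.11, adjusted p = 0.987 by the edgeR test) but 0.01 with scaling by total counts alone. The interval given in the table for another gene, *Rcor3*, runs across most of chromosome 1 and covers *Des*, and no other member overlaps a gene in the table.

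Which mouse was high or low differed between the members. WT replicate 4 was the highest or lowest mouse in 7 of 10 members, and in 18.9% of all tested genes. It had the most *Actn3*, *Myoz1*, *Myoz3*, *Tcap* and *Des*, and the least *Actn2* and *Ldb3*. The same mouse had the highest value in 4 of the 8 fast and 4 of the 8 slow fibre markers, and in 9.27% of all tested genes. WT replicate 2 had the most *Flnc* and *Myot* and the least *Myoz3*, and was level with C2-/- replicate 1 for the most *Actn2*. Among C2-/- mice, replicate 4 had the least *Myoz1*, *Tcap* and *Myot* of all 8 mice.

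**Figure D5:**
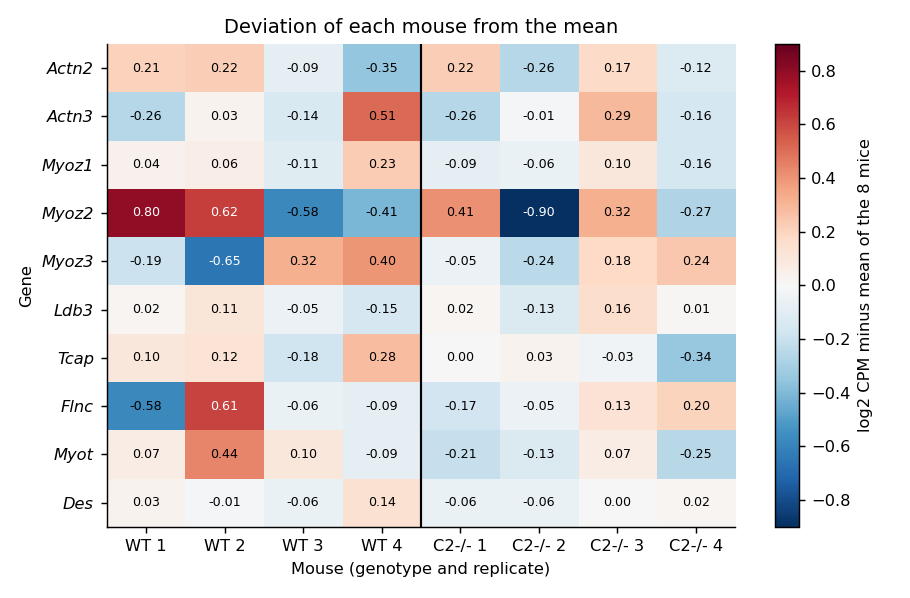
Difference in log2 CPM of each mouse (columns) from the mean of the 8 mice, for each Z-disc gene (rows), with the value in each cell. *Myoz2* ranges from −0.90 to 0.80, *Des* stays between −0.06 and 0.14, and WT replicate 4 combines high *Actn3* (0.51) with low *Actn2* (−0.35).

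Beyond the 10 members, 37 other genes of the Z-disc and its partners were tested. Of these, 20 were higher and 17 were lower in C2-/-, and their median log2 fold change was 0.02. In edgeR's quasi-likelihood test 0 of 37 had an adjusted p under 0.05 and 2 of 37, *Vim* and *Nes*, an unadjusted p under 0.05, a share near the 5.29% of all tested genes. The CPM of the genotypes overlapped for all 37 genes, where only 3.38% of all tested genes did not overlap. By role, all 5 desmin partners were higher, with a median of 0.22 and values from 0.03 to 0.60. Of the PDZ-LIM and LIM proteins 5 of 6 were lower, with a median of −0.16, where 54.2% of all tested genes were lower. In the edgeR test 0 of these 6 had an unadjusted p under 0.05 (smallest 0.311). The lower ones, *Pdlim3*, *Pdlim5*, *Pdlim7*, *Fhl3* and *Lmcd1*, were all highest in WT replicate 2. Of the 9 actin-binding and myopalladin family genes, 5 were higher, as were 2 of 3 capping protein genes, 5 of 7 filamin C partners and turnover factors, 1 of 4 calcineurin subunits and 1 of 3 others.

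*Vim* encodes vimentin, the intermediate filament protein of mesenchymal cells, which is also made in regenerating fibres. It was at 83.1, 87.3, 91.8 and 81.9 CPM in WT and at 104, 122, 128 and 91.2 CPM in C2-/-. Only C2-/- replicate 4 fell among the WT mice, and the log2 fold change was 0.37 (SE 0.13, unadjusted p = 0.0138, adjusted p = 0.778 in edgeR's quasi-likelihood test, Benjamini-Hochberg adjusted). *Nes* encodes nestin, an intermediate filament protein concentrated at neuromuscular and myotendinous junctions in adult muscle. Its level was 13.8, 11.3, 22.3 and 19.8 CPM in WT and 30.1, 19.2, 26.6 and 25.6 CPM in C2-/-, with a log2 fold change of 0.60 (SE 0.22, unadjusted p = 0.0218, adjusted p = 0.849 by edgeR). Of the C2-/- mice, 3 lay above every WT mouse, and replicate 2 lay within the WT range. *Plec*, which encodes the cytolinker plectin, had a log2 fold change of 0.22 (SE 0.11, unadjusted p = 0.0848 in the edgeR fit).

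Both *Vim* and *Nes* are also made by cells other than muscle fibres. Of the 6 markers of tendon and fibroblasts, 5 had a positive log2 fold change in C2-/-, where 54.2% of all tested genes were lower. In edgeR's quasi-likelihood test 3 of 6 had an unadjusted p under 0.05, against 5.29% of all tested genes, and 0 of 6 an adjusted p under 0.05. The markers were chosen with earlier results of these data known. Their share is therefore a description and cannot serve as a test against all genes. The summed level of these 6 ran from 315 to 418 CPM in WT and from 433 to 548 CPM in C2-/-. The 5 smooth muscle markers summed to between 178 and 286 CPM in WT and between 237 and 305 CPM in C2-/-, and 0 of 5 had an unadjusted p under 0.05. Of the 3 endothelial markers, 1 was higher and 2 were lower, with a median log2 fold change of −0.07. Of the 3 tested blood and macrophage markers, 2 were higher and 1 was lower, with a median of 0.02. In the edgeR fit 0 of 3 in either list had an unadjusted p under 0.05. Of the 5 satellite cell and regeneration markers, 4 were higher, 2 of them with an unadjusted p under 0.05 in the edgeR fit. These were *Myh3* (log2 fold change 1.14, adjusted p = 0.919) and *Myh8* (0.91, adjusted p = 0.92). *Myh3* was at 8.76 CPM in C2-/- replicate 3 and at 1.23 to 3.08 CPM in the other mice. *Pax7* (0.06) and *Myod1* (0.08) were near 0, and *Myog* was lower (−0.59). The sum of the 5 ran from 42.7 to 175 CPM in WT and from 60.8 to 138 CPM in C2-/-. The part of these lists in the values of *Vim* and *Nes* was not tested.

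In the direction of lower expression, the smallest p-values belonged to *Klhl40*, a stabiliser of thin filament proteins, *Ppp3cc*, a calcineurin catalytic subunit, and *Pdlim5*, a PDZ-LIM scaffold. Their log2 fold changes were −0.16, −0.15 and −0.27, with unadjusted p-values of 0.196, 0.227 and 0.311 in edgeR's quasi-likelihood fit. None of these passed the test. *Pdlim5* was at 648, 1205, 678 and 593 CPM in WT and at 563, 625, 913 and 485 CPM in C2-/-, so its WT mean rested on the high replicate 2.

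WT replicate 2 was the highest or lowest mouse in 22 of the 37 other genes (59.5%), near its share of 52% over all tested genes. In that mouse *Xirp1*, which encodes a filamin C-binding repeat protein, was at 478 CPM, against 174 to 285 CPM in the other mice. *Ky*, which encodes a filamin C-binding protein of the Z-disc, was at 96.7 CPM in WT replicate 2 and at 411 to 663 CPM elsewhere. These 2 genes, *Fhl3* (1411 CPM, against 538 to 861) and *Synpo2l* (159 CPM, against 327 to 419), were chosen after their values were seen. *Flnc* was highest in this same mouse.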

How the data were processed

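RNA sequencing of TA muscle from 4 WT and 4 C2-/- mice was analysed from 1 table of the deposited data. The authors deposited expected counts per gene, which were not normalized. The sources name HISAT, Bowtie2, featureCounts and the build GRCm38.p6, and whether counting used the strand is not given in the sources used here. Between 5.5% and 6.53% of the counts of a mouse were not whole numbers, and they were rounded. The authors' TPM, deposited per mouse, were used only to order levels. The deposited FPKM and group averages and the authors' own comparison (log2 fold change, DESeq2 p-value and q-value) were not used. A gene ID and counts were present in 16686 of 16687 rows, and 25 symbols were restored from gene IDs.

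Genotypes were compared with edgeR 4.0.16 (quasi-likelihood test) in R 4.3.3, with TMM factors. The default filter of edgeR kept 12542 genes, and p-values were adjusted over all of them by the Benjamini-Hochberg method. Standard errors and 95% intervals come from the same fit. For ratios, an exact permutation test (two-sided, scipy 1.17.1) was used, and their intervals invert this test. Depth limits precision through 3 counts as the smallest level, which covers counting error only. The scripts were tested on simulated data, in which DESeq2 let through more false calls than its nominal share.

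The members and gene lists were chosen with earlier results of these data known. Named are all members, *Mybpc2*, those of the other Z-disc genes with an unadjusted p under 0.05, and, where fewer than 3 in a direction had one, the 3 with the smallest p in it. Alternatives were RLE size factors, total counts with and without the 10 most highly counted genes, DESeq2 1.42.0, limma-voom (limma 3.58.1), other filters on low counts, a replicate block and leaving out each mouse, and for levels the exon union length and the TPM. Protein sequences and promoters of the other members were not used here.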

Additional observations from a re-analysis of the deposited data

Results flagged for a closer look

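In the 40 groups of 4 mice examined, 3 had 1 mouse far from the other mice of its group by Dixon's criterion, which flags about 1 in 20 groups by chance. *Pdlim5* was at 1205 CPM in WT replicate 2, where the other WT mice had 593 to 678 CPM. This gap took a share of 0.862 of the range of the group. *Ppp3cc* was at 28.9 CPM in C2-/- replicate 1, and the other C2-/- mice had 24.2 to 24.8 CPM, a gap of 0.872 of the range, while the WT mice had 25 to 30.5 CPM. *Mybpc2* was at 38.3 CPM in C2-/- replicate 3 and at 3.85 to 4.35 CPM in the other C2-/- mice, a gap of 0.985 of the range. None of the 20 groups formed by the 10 members met this criterion.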

How the results depend on the processing

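No member reached an adjusted p under 0.05 in any of the 16 alternatives, with the smallest adjusted p of each member between 0.687 and 0.973, in edgeR, DESeq2 or limma-voom. Over all tested genes the alternatives gave 4 to 39 genes with an adjusted p under 0.05. The 39 came from DESeq2, which let through more false calls than its nominal share in simulated data. With scaling by total counts alone, 40.9% of all genes were lower in C2-/-, and without the 10 most highly counted genes in the total 41.3% were, against 54.2% with TMM. The log2 fold change of *Actn2* (−0.002) was 7e-05 with RLE size factors, 7.1e-05 with DESeq2, 0.0039 with limma-voom, 0.0022 with no filter, 0.01 with at least 10 counts in every mouse, and 0.05 with either total count. *Des* turned to 0.01 and 0.0043 with the 2 total counts. Leaving out each mouse in turn gave −0.09 to 0.08 for *Actn2*, −0.21 to 0.12 for *Actn3*, −0.15 to 0.18 for *Myoz3*, −0.15 to 0.27 for *Flnc*, −0.02 to 0.08 for *Ldb3* and −0.07 to 7.1e-05 for *Des*, so these have no stable sign. The other members kept their sign, at −0.17 to −0.04 for *Myoz1*, −0.24 to −0.08 for *Tcap*, −0.34 to −0.15 for *Myot* and −0.44 to −0.0027 for *Myoz2*, which was near 0 without WT replicate 1. The ratio differences ran from −0.24 to 0.20 for *Actn3* to *Actn2*, from −0.15 to 0.34 for *Myoz1* to *Myoz2* and from −0.34 to 0.04 for *Myoz1* to *Myoz3*. Members with an unadjusted p under 0.05 numbered 0 to 1, the 1 being *Myot* without WT replicate 4 or without C2-/- replicate 3, and the other Z-disc genes 1 to 3, with 1 without WT replicate 1 and without C2-/- replicate 1. Levels by the authors' TPM kept 6 of 10 ranks. Same-numbered mice had correlations of 0.267, 0.042, −0.0507 and 0.0212 in their deviations from the group means. Over all pairs of a WT and a C2-/- mouse the correlations ran from −0.225 to 0.267. These values cannot show whether the mice were paired. With the replicate block, *Actn2* was 0.0047 and the other Z-disc genes with an unadjusted p under 0.05 numbered 4. The causes of these changes were not tested.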

Other observations

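Alpha-actinins and filamins also have forms made in most cells. *Actn1* and *Actn4*, the non-muscle alpha-actinins, were at 10.3 ± 1.12 and 61.8 ± 5.76 CPM in WT and at 12 ± 1.68 and 56.2 ± 3.32 CPM in C2-/- (SD, n = 4 each). Neither gene had an unadjusted p under 0.05 in edgeR's quasi-likelihood fit.

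*Flna*, the filamin of most non-muscle cells, was at 42, 33.7, 49.9 and 47.6 CPM in WT and at 73.8, 49.1, 57.3 and 62 CPM in C2-/-. Only C2-/- replicate 2 lay below a WT mouse. Its log2 fold change was 0.48 (SE 0.16, unadjusted p = 0.013, adjusted p = 0.766, edgeR's quasi-likelihood test, Benjamini-Hochberg adjusted), so it did not pass the adjusted test. *Flna* was higher in C2-/-, as were 5 of the 6 tendon and fibroblast markers, whose part was not tested.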
